A study of Mus musculus with 6 samples.

Results

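Genes of 10 chemokine ligands were followed in the RNA of cultured B16 (B16-BL6) mouse melanoma cells, in cells with a knockout of the receptor gene Ifngr1 and in their controls. The ligands were Ccl2, Ccl5, Ccl7, Cxcl1, Cxcl5, Cxcl9, Cxcl10, Cxcl12, Cxcl16 and Cx3cl1, chosen by name and read from the rows of their Ensembl identifiers. They are 10 of 55335 genes in the tables. Of these 10, 8 had a count in at least 1 library, 5 had more than 3 counts in some library, and 4 passed the filter on low counts that preceded the test. The scrambled control cells, given the genotype WT in the labels, carried Cas9 with a guide against GFP. IFNγR1KO cells carried Cas9 with a guide against Ifngr1, and both lines had been made with the same lentiviral vector and puromycin selection. Single clones were picked and screened by PD-L1 after stimulation with interferon. The paper reports the use of single IFNγR1KO clones rather than mixtures. The sources used here do not say whether the 3 IFNγR1KO cultures came from 1 clone, nor which guide they carried. In this design an effect of the knockout cannot be told apart from a difference between clones. Each group had 3 cultures, numbered 1, 2 and 3 for scrambled control and 10, 11 and 12 for IFNγR1KO, and neither the labels nor the methods name a cytokine added before RNA extraction. The cultures were plated in parallel, so the p-values measure the spread between them, which may be technical.

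Chemokines are small secreted or membrane-anchored proteins that guide leukocytes by activating G protein-coupled receptors. In tumors, CXCL9 and CXCL10 attract activated T cells through CXCR3, CCL5 attracts T cells and myeloid cells, CCL2 and CCL7 attract monocytes through CCR2, and CXCL1 and CXCL5 attract neutrophils through CXCR2. IFN-γ induces Cxcl9 and Cxcl10 through factors that include IRF1, whereas Cxcl10, Ccl5 and Cxcl1 also respond to NF-κB, and Cxcl10 and Ccl5 to type I interferon.

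The libraries held between 6698956 and 10579788 counts on genes, and each IFNγR1KO library held fewer than each scrambled control library. A single count was worth 0.0966 to 0.109 CPM in scrambled control libraries and 0.135 to 0.142 CPM in IFNγR1KO libraries, where CPM is the count scaled to 1000000 counts on tested genes after TMM scaling. A gene was called higher or lower where its p in the quasi-likelihood test of edgeR, adjusted by Benjamini-Hochberg over 13642 tested genes, was under 0.05. The melanocytic markers Pmel, Mlana, Tyr, Tyrp1, Dct, Mitf, Sox10 and Gpnmb were present in every library, and none of the 8 passed the test (edgeR; 1 had an unadjusted p under 0.05). Of 8 leukocyte markers, 6 had no count in any library. Ptprc, the gene of CD45, had 1 count in 1 scrambled control library, while Csf1r had between 42 and 96 counts in every library. Of the exonic bases of Csf1r, 15.1% lie under exons of Hmgxb3 on the other strand. The fibroblast markers Col1a1 and Col1a2 were higher in IFNγR1KO cells, with log2 fold changes of 1.96 and 1.07. The summed level of the 5 fibroblast markers ran from 57.0 to 75.4 CPM in scrambled control and from 129 to 133 CPM in IFNγR1KO libraries. Most of this sum was Col1a2, at 52.5 to 69.5 CPM in scrambled control and 122 to 125 CPM in IFNγR1KO libraries. Pdgfra, the other tested marker of the 5, had 38, 32 and 36 counts in scrambled control and 17, 13 and 15 in IFNγR1KO libraries, with a log2 fold change of -0.77 (edgeR adjusted p = 0.0866) and no overlap between the groups. Dcn had 1 count in all and Lum none. Their part in the results was not tested. In RNA of whole cultures, fewer cells of a kind and less RNA per cell cannot be told apart. The targeted gene, Ifngr1, had 154, 144 and 172 counts in scrambled control and 80, 85 and 82 in IFNγR1KO libraries, with a log2 fold change of -0.47 (adjusted p = 0.0729 from edgeR). The groups did not overlap, and whether the remaining RNA encodes a receptor cannot be read from counts per gene.

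Cxcl10 (ENSMUSG00000034855.13), which IFN-γ and type I interferon induce and which attracts activated T cells, had by far the highest level of the 10 ligands in both groups, and it did not pass the test. Scrambled control libraries held 762, 877 and 931 of its counts, and IFNγR1KO libraries held 579, 762 and 754. Scaled for depth, these were 82.7, 87.3 and 90.0 CPM against 82.3, 103 and 106 CPM. The groups overlapped, since IFNγR1KO replicate 10 lay below every scrambled control library while replicates 11 and 12 lay above them. The mean was 86.6 ± 3.66 CPM in scrambled control and 97.2 ± 13.0 CPM in IFNγR1KO cells (SD, n = 3 each). The fold change of IFNγR1KO over scrambled control was 1.12, with a 95% confidence interval from 0.910 to 1.38 (0.17 on the log2 scale, with a standard error, SE, of 0.14, edgeR adjusted p = 0.483). The level of Cxcl10 exceeded that of 83.4% of tested genes.

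Cxcl9 (ENSMUSG00000029417.9), its neighbor in the genome and the other CXCR3 ligand of the list, was almost uncounted. It had 1 count in scrambled control replicate 1 and 0 in the other 5 libraries. For a gene with no count in a whole group, 3 counts were taken as the limit, or 0.139 CPM over the IFNγR1KO libraries, where this applies to Cxcl9, and 0.101 CPM over the scrambled control libraries for ligands with no count there. These limits cover counting error only. Cxcl10 lies on chromosome 5 of GRCm38 from 92346638 to 92348889, on the minus strand, with 5.91% of its exonic bases under exons of Art3 on the other strand. Cxcl9 lies 18558 bases away, from 92321347 to 92328079, and Cxcl11, the remaining CXCR3 ligand, lies 10654 bases away on the other side. Cxcl11 had at most 2 counts in a library, and 41.7% of its exonic positions overlap Gm2673 on the other strand. Within this cluster of CXCR3 ligands, RNA was thus measured at an appreciable level from Cxcl10 alone, in both groups.

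The promoters of Cxcl10, Cxcl9 and Cxcl1 are shown because the first is highly expressed in both groups, the second is almost uncounted in both, and the third has a higher value in IFNγR1KO cells. Each line gives the 250 bases before the RefSeq transcription start (build GRCm38.p6), from 5′ to 3′ on the strand of the gene, and capitals mark motif matches. The window of Cxcl10 is chr5:92348890-92349139 on the minus strand, that of Cxcl9 is chr5:92328080-92328329 on the minus strand, and that of Cxcl1 is chr5:90890995-90891244 on the plus strand.
Cxcl10: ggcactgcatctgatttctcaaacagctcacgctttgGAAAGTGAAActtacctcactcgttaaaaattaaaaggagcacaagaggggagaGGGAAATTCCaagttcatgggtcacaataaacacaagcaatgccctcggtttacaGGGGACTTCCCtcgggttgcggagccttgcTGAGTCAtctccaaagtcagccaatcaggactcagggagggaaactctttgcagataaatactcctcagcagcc
Cxcl9: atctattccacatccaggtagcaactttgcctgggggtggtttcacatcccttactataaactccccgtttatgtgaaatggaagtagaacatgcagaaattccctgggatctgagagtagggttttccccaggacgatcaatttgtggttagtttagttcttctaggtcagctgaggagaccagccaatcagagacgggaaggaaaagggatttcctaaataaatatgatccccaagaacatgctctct
Cxcl1: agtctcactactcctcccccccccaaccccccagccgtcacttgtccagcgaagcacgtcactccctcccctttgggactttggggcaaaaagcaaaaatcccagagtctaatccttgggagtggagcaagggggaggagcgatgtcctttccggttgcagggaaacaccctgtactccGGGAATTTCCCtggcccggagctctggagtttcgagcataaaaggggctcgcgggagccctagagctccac

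Motifs were searched on both strands. They were the interferon-stimulated response element (ISRE, GAAA repeated after any 2 bases), the gamma-activated site (GAS, TTCNNNGAA), the AP-1 site (TGANTCA) and the NF-κB consensus. The Cxcl10 window held an ISRE match, GAAAGTGAAA, that begins 213 bases before the start. It also held NF-κB matches that begin 159 bases before the start (GGGAAATTCC) and 104 and 103 bases before it, the last 2 overlapping as GGGGACTTCCC, and an AP-1 match, TGAGTCA, at 74 bases. The Cxcl1 window held overlapping NF-κB matches at 71 and 70 bases, and the Cxcl9 window held no match to these 4 motifs. Among 32851 promoter windows of this length, 2.98% held an ISRE match, 7.25% an NF-κB match, 6.75% an AP-1 match and 7.02% a GAS match. Of the 10 ligands, 5 were in the table of promoters, and none of these 5 windows held a GAS match. Ccl5 was not among the 5, so its promoter was not examined. A match is a likeness of letters, and binding was not measured. The patterns are strict, so a window without a match can still hold a site that differs from them.

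Ccl5 (ENSMUSG00000035042.2) rose in IFNγR1KO cells. This attractant of T cells and myeloid cells, also called RANTES, had 10, 17 and 14 counts in scrambled control and 61, 62 and 43 in IFNγR1KO libraries. These were 1.09, 1.69 and 1.35 CPM against 8.67, 8.40 and 6.04 CPM, so that the lowest IFNγR1KO library lay well above the highest scrambled control library. The mean rose from 1.38 ± 0.304 to 7.70 ± 1.44 CPM (SD, n = 3 each). The fold change was 5.53, with a 95% confidence interval from 3.62 to 8.43 (2.47 on the log2 scale, SE 0.28, edgeR adjusted p = 0.00017). A two-sided exact permutation test of the CPM gave p = 0.1, the smallest that 3 libraries against 3 allow. Ccl5 passed the test in each of the 13 alternative fits, with log2 fold changes from 2.33 to 2.64. Ccl5 lies on chromosome 11 from 83525778 to 83530518, and no exonic position of it overlaps an exon of another gene.

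**Figure D1:**
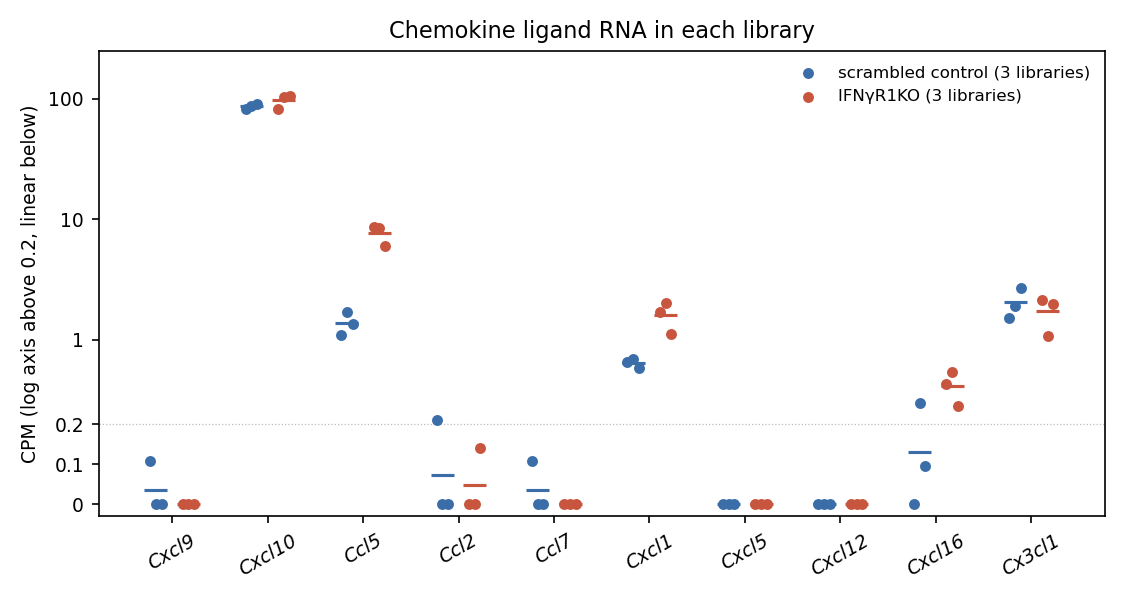
CPM of the 10 chemokine ligands in each library (vertical axis, logarithmic above 0.2 CPM and linear below it); points are libraries, blue for scrambled control and red for IFNγR1KO, and short lines are group means. Cxcl10 lies between 82.3 and 106 CPM in both groups, Ccl5 and Cxcl1 do not overlap between groups, and Cxcl9, Ccl2, Ccl7, Cxcl5 and Cxcl12 are at or near 0.

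The plot of CPM by library shows this separation. The Cxcl10 points of the groups were interleaved, whereas the lowest Ccl5 value of IFNγR1KO cells, 6.04 CPM, was far above the highest of scrambled control cells, 1.69 CPM. Within a library the ratio of 2 genes needs no scaling between libraries, so the ratio of Ccl5 to Cxcl10 counts was compared as well. It was 0.0131, 0.0194 and 0.0150 in scrambled control and 0.105, 0.0814 and 0.0570 in IFNγR1KO libraries. On the log scale the difference was 2.33, or 5.04-fold (two-sided exact permutation test, p = 0.1, adjusted p = 0.133 over 4 ratios). These 2 genes, both of which IFN-γ can induce, therefore had unequal changes in all 3 IFNγR1KO cultures.

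Cxcl1 (ENSMUSG00000029380.11), an attractant of neutrophils, had few counts and a higher level in IFNγR1KO cells. It had 6, 7 and 6 counts in scrambled control and 12, 15 and 8 in IFNγR1KO libraries, or 0.651, 0.696 and 0.580 CPM against 1.70, 2.03 and 1.12 CPM. The groups did not overlap. The fold change was 2.50, with a 95% confidence interval from 1.35 to 4.61 (1.32 on the log2 scale, SE 0.41, edgeR adjusted p = 0.0460). The call was marginal. It was absent with DESeq2 (adjusted p = 0.186), with limma-voom (adjusted p = 0.0504), without the filter on low counts (adjusted p = 0.0873), and on leaving out any library but IFNγR1KO replicate 12, where the adjusted p was between 0.1 and 0.203. None of the scrambled control libraries reached the filter's 1.19 CPM for Cxcl1, so the gene was tested only because of its level in IFNγR1KO cells. For Ccl5, 2 of 3 scrambled control libraries and all 3 IFNγR1KO libraries reached it. Cxcl5 (ENSMUSG00000029371.7), the other neutrophil attractant of the list, had no count in any library. Cxcl1 lies on chromosome 5 from 90891241 to 90893115, with 129616 bases between it and Cxcl5.

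Cx3cl1 and Cxcl16 are made as membrane-anchored proteins whose chemokine domain can be shed by proteases. Cx3cl1 (ENSMUSG00000031778.13, chromosome 8 from 94772009 to 94782427), the ligand of CX3CR1, had 14, 19 and 28 counts in scrambled control and 15, 8 and 14 in IFNγR1KO libraries. In CPM these were 1.52, 1.89 and 2.71 against 2.13, 1.08 and 1.97, and the groups overlapped. The log2 fold change was -0.25 (SE 0.37, edgeR adjusted p = 0.712), and the 95% confidence interval of the fold change ran from 0.483 to 1.46. Its sign depended on single libraries, with log2 fold changes of 0.01 without scrambled control replicate 3 and 0.02 without IFNγR1KO replicate 11. Cxcl16 (ENSMUSG00000018920.11, chromosome 11 from 70453983 to 70459984), the ligand of CXCR6, had 0, 3 and 1 counts against 3, 4 and 2, too few for the test. Its summed CPM had a ratio of 3.09, with an exact interval for counting error from 0.864 to 13.7, and 18.3% of its exonic sequence is shared with Zmynd15 on the other strand.

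The monocyte attractants Ccl2 and Ccl7 were near zero. Ccl2 (ENSMUSG00000035385.5) had 2 counts in scrambled control replicate 1 and 1 in IFNγR1KO replicate 12. Ccl7 (ENSMUSG00000035373.2), which lies 8258 bases from Ccl2 on chromosome 11, had 1 count in scrambled control replicate 1. Cxcl12 (ENSMUSG00000061353.11), the homeostatic ligand of CXCR4 made mainly by stromal cells, had no count in any of the 6 libraries. For these genes, as for Cxcl9 and Cxcl5, a difference between the groups was not detectable at this depth.

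Levels of the ligands were far apart. Cxcl10 took 95% to 95.7% of the summed counts of the 10 ligands in scrambled control libraries and 86.4% to 91.7% in IFNγR1KO libraries, while Ccl5 took 1.26% to 1.84% and 5.23% to 9.10%. Per kilobase of exon, which allows levels of different genes to be compared, the order in scrambled control was Cxcl10 at 38.5, Ccl5 at 1.43, Cx3cl1 at 0.519 and Cxcl1 at 0.343 CPM per kilobase. None of these 4 overlapped with its neighbor in the order. In IFNγR1KO cells it was Cxcl10 at 43.1, Ccl5 at 8.02, Cxcl1 at 0.864 and Cx3cl1 at 0.440 CPM per kilobase, again without overlap between neighbors. The other 6 ligands were at or below 0.138 CPM per kilobase in both groups, and neighbors among them overlapped. By role, the IFN-γ-inducible ligands held 1 gene that rose (Ccl5), 1 that did not pass (Cxcl10) and 1 near zero (Cxcl9). The others held 1 that rose (Cxcl1, in 4 of 12 alternative fits), 1 that did not pass (Cx3cl1) and 5 too low to test.

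Of the 4 ligands tested, 2 were higher in IFNγR1KO cells, where 7.73% of all tested genes were. None was lower, by edgeR, DESeq2 or limma-voom or at an unadjusted p under 0.05 from edgeR. Both that were higher also had a log2 fold change above 1, as 3.25% of all tested genes did. The groups did not overlap for these 2 of the 4 ligands, beside 32.6% of all tested genes. Since Cxcl1 was tested only through its level in IFNγR1KO cells, these counts describe the ligands and carry no weight as a share. Among 29 other chemokine ligands, 21 had no count in any library and 2 were tested, Ccl25 and Ccl27a, with log2 fold changes of 0.24 (adjusted p = 0.537) and -0.73 (adjusted p = 0.220, both from edgeR). None of the 2 passed by edgeR, DESeq2 or limma-voom, and none had an unadjusted p under 0.05. The reads of Ccl27a can be shared with near-identical copies, and 0.337% of its exonic positions overlap Il11ra1. The sign of Ccl25 turned to -0.04 without IFNγR1KO replicate 10.

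**Figure D2:**
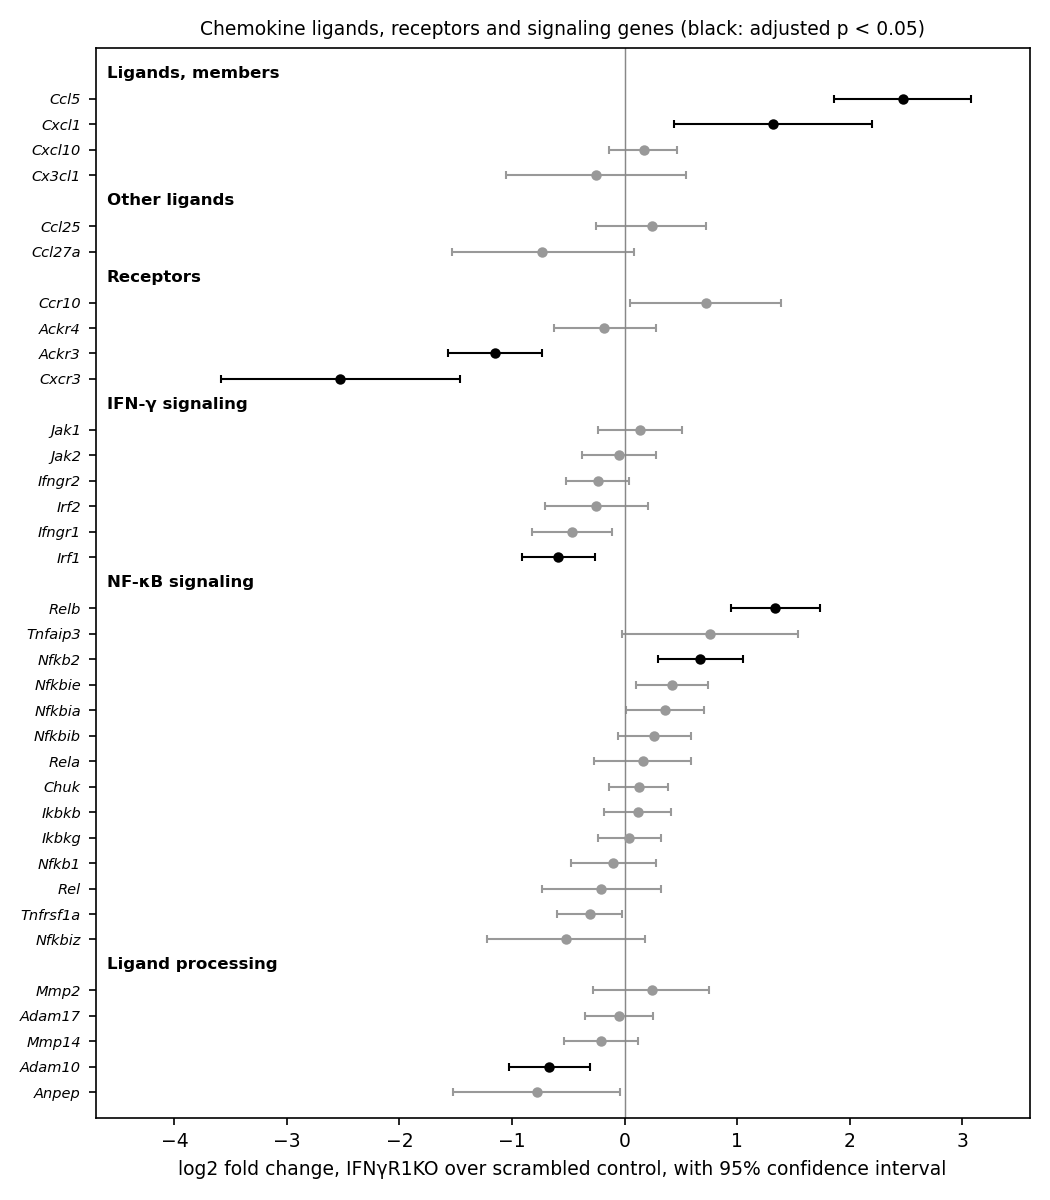
Log2 fold change of IFNγR1KO over scrambled control (horizontal axis) with its 95% confidence interval from edgeR, for every tested ligand and for the tested genes of the receptor, signaling and processing lists, with 1 signaling gene left out; black marks an adjusted p under 0.05. Ccl5 is highest at 2.47 and Cxcr3 lowest at -2.53, and the interval of Cxcl10 spans 0.

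On the side of the receptors, 13 of 23 genes had no count in any library and 4 were tested. Of these, 2 were lower in IFNγR1KO cells, beside 7.62% of all tested genes, and none was higher by edgeR, DESeq2 or limma-voom (1 had an unadjusted p under 0.05). Since 1 of the 2, Cxcr3, reached the filter in 3 scrambled control libraries and only 1 IFNγR1KO library, this count carries no weight as a share. Cxcr3 encodes the receptor of CXCL9 and CXCL10 and is best known from activated T cells. It had 22, 41 and 51 counts in scrambled control and 5, 1 and 8 in IFNγR1KO libraries. These were 2.39, 4.08 and 4.93 CPM against 0.710, 0.135 and 1.12 CPM, with every IFNγR1KO library below every scrambled control library. The log2 fold change was -2.53 (SE 0.49, edgeR adjusted p = 0.00470), and it ran from -3.16 without IFNγR1KO replicate 12 to -2.02 without IFNγR1KO replicate 11. The T cell marker Cd3e had no count in any library, and none of the exonic bases of Cxcr3 lie under exons of another gene.

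Ackr3, an atypical receptor that binds and clears CXCL12 without G protein signaling, had 168, 153 and 154 counts in scrambled control and 41, 60 and 55 in IFNγR1KO libraries. Its level fell from 16.1 ± 1.85 to 7.23 ± 1.23 CPM (SD, n = 3 per group), giving a log2 fold change of -1.15 (SE 0.19, edgeR adjusted p = 0.00202). It was lower in all 13 alternative fits, with an adjusted p of at most 0.0137. Its ligand gene Cxcl12 and the signaling receptor gene Cxcr4 had no count in any library.

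**Figure D3:**
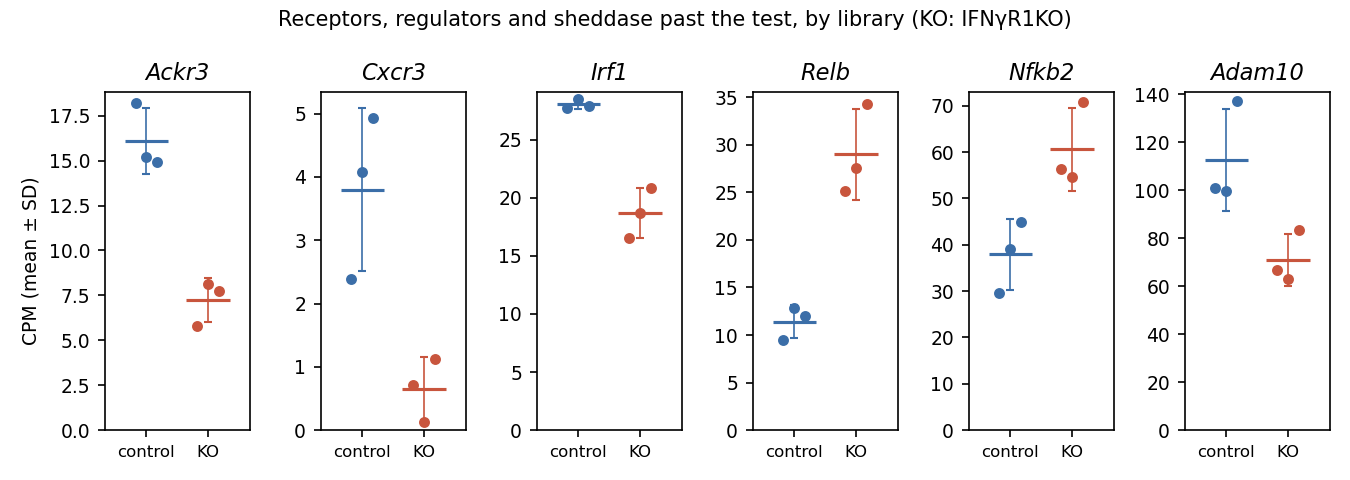
CPM in each library (vertical axes, starting at 0, mean ± SD) of the receptor genes Ackr3 and Cxcr3, the regulators Irf1, Relb and Nfkb2 and the sheddase gene Adam10 in scrambled control (blue) and IFNγR1KO (red, marked KO) cells, 3 libraries each. The 6 genes were chosen because they passed the test. The groups do not overlap in any of the 6 panels, beside 32.6% of all tested genes without overlap. Relb and Nfkb2 are higher in IFNγR1KO cells and the other 4 are lower.

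The regulators that act on chemokine promoters were examined next. Of 9 genes of IFN-γ signaling, 7 were tested, with a median log2 fold change of -0.25. One passed, Irf1, a transcription factor that IFN-γ induces and that binds ISRE sequences, and it was lower (DESeq2 called 2 of 9 lower and limma-voom 1 of 7), beside 7.62% of all tested genes lower and 15.3% called in either direction. None was higher by edgeR, DESeq2 or limma-voom, or at an unadjusted p under 0.05. Irf1 had 27.7, 28.5 and 27.9 CPM in scrambled control and 16.5, 18.7 and 20.8 CPM in IFNγR1KO libraries, without overlap. The log2 fold change was -0.59 (SE 0.15, edgeR adjusted p = 0.0203). Its adjusted p was 0.0667 without scrambled control replicate 2, 0.109 without IFNγR1KO replicate 10 and 0.0940 without IFNγR1KO replicate 11. The ratio of Cxcl10 to Irf1 counts was 2.99, 3.07 and 3.22 in scrambled control and 4.99, 5.52 and 5.09 in IFNγR1KO libraries, a 1.68-fold difference (two-sided exact permutation test, p = 0.1, adjusted p = 0.133 over 4 ratios). Every IFNγR1KO library thus held more Cxcl10 counts per Irf1 count than any scrambled control library. Irf1 was named because it was called lower, so this ratio largely restates that call and is no separate result.

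**Figure D4:**
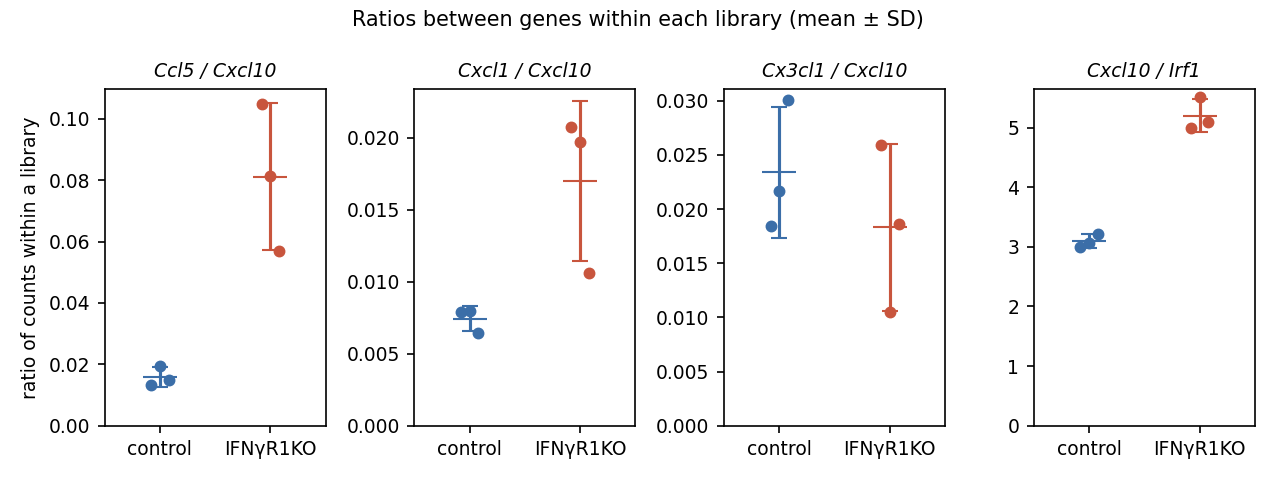
Ratio of the counts of one gene to those of another within each library (vertical axes, starting at 0) in scrambled control (blue) and IFNγR1KO (red) cells, with mean ± SD over 3 libraries. Ccl5, and less so Cxcl1, is higher relative to Cxcl10 in IFNγR1KO libraries, Cx3cl1 overlaps, and Cxcl10 relative to Irf1 is between 4.99 and 5.52 there against 2.99 to 3.22.

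As the plot of ratios shows, Cxcl1 relative to Cxcl10 was 0.00743 ± 0.000858 in scrambled control and 0.0170 ± 0.00556 in IFNγR1KO libraries (SD, n = 3 each). This was a 2.20-fold difference without overlap (two-sided exact permutation test, p = 0.1, adjusted p = 0.133). Cxcl1 itself did not overlap between the groups and was tested only because of its level in IFNγR1KO cells. The ratio is therefore no separate support for its call. Cx3cl1 relative to Cxcl10 overlapped between the groups (exact permutation p = 0.5).

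Of 15 genes of NF-κB signaling, 14 were tested and 2 passed, both higher, beside 7.73% of all tested genes higher and 15.3% called in either direction, while 10 had a positive and 4 a negative log2 fold change, with a median of 0.14. None was lower by edgeR, DESeq2 or limma-voom (1 had an unadjusted p under 0.05). Both that were higher encode the dimer of the noncanonical pathway. Relb rose from 9.44, 12.8 and 12.0 CPM in scrambled control to 25.1, 27.6 and 34.3 CPM in IFNγR1KO libraries, a log2 fold change of 1.34 (SE 0.18, edgeR adjusted p = 0.00052), and passed in all 13 alternative fits. Nfkb2, the precursor of p52, rose from 38.0 ± 7.71 to 60.6 ± 8.91 CPM (SD, n = 3 per group), giving a log2 fold change of 0.67 (SE 0.17, edgeR adjusted p = 0.0203). Its adjusted p was 0.0706 without scrambled control replicate 1 and 0.0786 without scrambled control replicate 2, and 18.1% of its exonic bases lie under exons on the other strand. The other 12 tested genes did not pass. Among them, Tnfaip3, Nfkbie and Nfkbia, which encode inhibitors of the pathway, had log2 fold changes of 0.76, 0.42 and 0.36. Their adjusted p was 0.186, 0.0729 and 0.163 (edgeR), without overlap between the groups. Of the 14 tested genes, 7 did not overlap, beside 32.6% of all tested genes. Nfkbib, which also encodes an inhibitor, and the similarly named Nfkbiz had log2 fold changes of 0.26 and -0.52 (edgeR adjusted p = 0.279 and 0.317), with overlap. Rela had a log2 fold change of 0.16 (adjusted p = 0.648) and Nfkb1 of -0.10 (adjusted p = 0.769, both from edgeR). Il1r1, a receptor of interleukin-1, had no count, and the TNF receptor gene Tnfrsf1a was at 117 ± 6.11 and 94.5 ± 9.90 CPM (SD, n = 3 each; adjusted p = 0.140 from edgeR).

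Among 7 proteases that act on chemokines, 5 were tested and 1 passed, beside 15.3% of all tested genes called in either direction and 7.62% lower. With so few genes, these list counts are not results about the lists. Adam10, which sheds CX3CL1 and CXCL16 from the cell surface, fell from 113 ± 21 to 71.0 ± 10.9 CPM (SD, n = 3 per group), giving a log2 fold change of -0.67 (SE 0.17, edgeR adjusted p = 0.0178). Its adjusted p was 0.0739 without IFNγR1KO replicate 10 and 0.111 without IFNγR1KO replicate 11. Adam17, the other sheddase of CX3CL1, had a log2 fold change of -0.05 (adjusted p = 0.861). None of the 5 was higher by edgeR, DESeq2 or limma-voom or at an unadjusted p under 0.05, and their median log2 fold change was -0.21. Dpp4, whose enzyme trims several chemokines, had at most 1 count in a library. RNA levels do not report secreted or shed protein, which was not analysed here.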

How the data were processed

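Poly(A)-selected RNA of 3 scrambled control and 3 IFNγR1KO cultures was sequenced with paired-end reads. The authors aligned reads to GRCm38 with STAR 2.7.5a and counted them per gene with HTSeq 0.11.2, and the deposited values are these counts without normalization; annotation release and strand setting are not given in the sources used here. The 5 closing lines of each table, which name no gene, held 53.0% to 54.0% of its reads and were left out. Within groups, every pair of libraries differed beyond sampling noise (chi-square per degree of freedom 2.62 to 22.7).

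Symbols, positions and exonic lengths came from GENCODE M21 (GRCm38), which holds 55154 of 55335 identifiers. In R 4.3.3, all genes were tested with edgeR 4.0.16 (filterByExpr, minimum count 10 and minimum total 15, TMM, quasi-likelihood test, Benjamini-Hochberg). DESeq2 1.42.0, with the Wald test of the study and independent filtering at 0.05, and limma 3.58.1 with voom were alternatives, beside other scalings, no filter (at least 1 count in any library) and leaving out each library. Thinning to the smallest library total and leaving out scrambled control replicate 3 with IFNγR1KO replicate 12 were chosen after seeing the data. Single values were compared by exact permutation tests, and summed counts by exact intervals for counting error at 95%. A library with 3 counts or fewer was taken as near zero. The fits were tested on simulated data.

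The ligands and gene lists were chosen with earlier results of these data known. All ligands, Ifngr1, and, from each list, the called genes of smallest adjusted p (up to 3 in a direction) were named by rule, or the 2 most abundant where none passed; other genes were named after their values were seen. Promoters came from the RefSeq table of GRCm38.p6, with motif positions counted from 1 at the base before the start. Values of 1 gene of IFN-γ signaling are not reported here, although it is included in the counts and median of its list.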

Additional observations from a re-analysis of the deposited data

How the results depend on the processing

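Ccl5, Cxcr3, Ackr3 and Relb kept their direction and their call in all 13 alternatives, and Cxcl10, with log2 fold changes from 0.09 to 0.27, passed in none. The number of ligands called higher, 2 in the main comparison, was 1 with DESeq2, 1 with limma-voom, 1 without the filter on low counts and 1 with libraries thinned to the smallest total, where Cxcl1 fell under the filter; with single libraries left out it was between 1 and 2. The number called lower was 0 in every alternative. Ifngr1 stayed between -0.54 and -0.42 on the log2 scale without passing. Among fits without 1 library, signs turned for Cx3cl1 (-0.43 to 0.02; 0.01 without control replicate 3, 0.02 without IFNγR1KO replicate 11) and Ccl25 (-0.04 to 0.40; -0.04 without IFNγR1KO replicate 10). Without control replicate 1, 1 receptor gene was called higher, and without control replicate 3 and IFNγR1KO replicate 12 together, 1 NF-κB gene was called lower. Over all genes, 1054 were higher and 1039 lower. With single libraries left out, between 535 and 1372 were higher and between 457 and 1452 lower; the lowest counts came without control replicate 2 (535 and 552), IFNγR1KO replicate 10 (570 and 525) and IFNγR1KO replicate 11 (571 and 457). Without control replicate 3 and IFNγR1KO replicate 12 together, 1447 were higher and 1617 lower. With library totals alone as scaling the split was 1174 higher and 755 lower, and the median log2 fold change of all genes was 0.05. No paired analysis was possible because the groups share no replicate number. At this depth, ligands below about 0.3 CPM had at most 3 counts in a library.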

Other observations

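Some genes related to these ligands were too low for the test and are given as counts, chosen after their values were seen. Ccl9, a chemokine gene 42400 bases from Ccl5, had 5, 3 and 2 counts in scrambled control and 0 in each IFNγR1KO library, while Ccl5 was higher there. Irf8, a transcription factor of the IFN-γ response, had 8, 9 and 8 counts in scrambled control and 0, 0 and 1 in IFNγR1KO libraries, a ratio of summed CPM of 0.0550 with an exact interval for counting error from 0.00134 to 0.336. Socs1, a feedback inhibitor of the same pathway, had 8, 14 and 9 counts against 2, 6 and 3, without overlap in CPM. The chemokine gene Ccl28 went the other way, with 1, 4 and 4 counts against 3, 5 and 4, also without overlap in CPM. Its ratio of summed CPM was 1.83, with an exact interval for counting error from 0.709 to 4.93. Ccr10, the receptor of CCL27, was tested and did not pass, with a log2 fold change of 0.72 (SE 0.31, edgeR adjusted p = 0.142). It had 61, 30 and 37 counts in scrambled control and 43, 45 and 67 in IFNγR1KO libraries, with overlap in CPM.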
